A study of Mus musculus with 30 samples.

Results

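In the proximal part of the large cluster on chromosome 2, 44 odorant receptor (OR) genes were followed across 5 groups of mice. They were chosen by position alone, as the OR genes with counts that start beyond 80000000 on chromosome 2 and before a limit between Olfr1126 and Olfr1151 in the OR naming table of the study. The sources used here name no genome build for that table. These are 44 of 564 OR genes in the deposited table and 44 of 47 OR genes listed in that range; Olfr993, Olfr998 and Olfr1010 were not analysed here. The first is Olfr992 (chr2:85239759-85240688, reverse strand) and the last Olfr1126 (chr2:87297324-87298268, forward strand), so the 44 genes span 2059 kb. They are 25 genes on the reverse and 19 on the forward strand. The nearest measured OR genes outside are Olfr368 (chr2:37187269-37188550) and Olfr1151 (chr2:87697334-87698546).

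OR genes encode the G protein coupled receptors with which the nose detects odours, and they lie in clusters on many chromosomes. A mature olfactory sensory neuron expresses a single OR gene from a single allele, so the OR RNA of a whole olfactory mucosa depends on how many neurons have chosen a gene and on how much of its RNA each of them holds. These 2 quantities cannot be told apart in tissue RNA. Regulatory elements such as H and P are needed for the expression of some OR genes in their own clusters.

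The study counted OR RNA with NanoString probes in 1 μg of total RNA of whole olfactory mucosa, 1 mouse aged 21 days per lane and 6 mice per group. ΔOlfr7Δ mice, homozygous for a deletion of the Olfr7 cluster on chromosome 9 and labelled inbred 129SvEv, were 2 females and 4 males; they shared cartridge MK38 with 4 female and 2 male wild-type mice of the 129S6/SvEvTac background (called 129 mice here), which are labelled as a supplier's strain. ΔHxΔP mice, 1 female and 5 males, are labelled double homozygous for the strain ΔP (Berry) x ΔH and lack the P element of chromosome 7 and the H element of chromosome 14. They shared cartridge MK29 with 3 female and 3 male wild-type mice labelled as the companion strain, and 4 female and 2 male wild-type mice labelled as companions of the ΔH strain were on cartridge MK37. All mice of MK29 and MK37 have a mixed C57BL/6J x 129SvEv background. Mutants were in lanes 7 to 12 of MK38 and MK29 and their wild-type partners in lanes 1 to 6, so genotype and lane position cannot be told apart.

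Over all OR genes a lane held 618163 to 1013430 counts. Lanes were scaled by their positive controls and by 5 markers of mature olfactory sensory neurons (Omp, Gnal, Cnga2, Ano2 and Adcy3), all of which were far above background in the 30 lanes, from 5982 for the lowest value of Ano2 to 126776 for the highest of Cnga2. The background of a lane, the mean plus 2 SD of 8 negative controls, was 32.4 to 56.2 scaled counts, and the lowest median of any of the 44 genes in any group was 203 (Olfr1055 in ΔHxΔP mice). All 44 genes passed the filter on low counts in every comparison. In ΔOlfr7Δ mice all 37 genes of the deleted cluster that were tested fell, with medians of 8.42 to 105 against 170.001 to 2810 in 129 mice. In ΔHxΔP mice 6 of 7 OR genes that the naming table marks for H fell, and of 22 marked for P 17 fell and 1 rose, with mutant medians of up to 820 and 2736. Olfr1507, marked for H, was counted at 31.0 to 52.8 against 4995 to 11467 in wild-type mice, and Olfr2, marked for P, at 40.4 to 65.9 against 3491 to 4244.

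Each count comes from a pair of probes of about 50 bases, a capture and a reporter probe, that must bind the same RNA molecule. The probes of 6 genes are shown because the comparisons turn on them: of the 44, Olfr1052 has the smallest p in ΔOlfr7Δ mice, Olfr1100 in ΔHxΔP mice, Olfr1018 between the wild-type mice of MK29 and MK37 and Olfr1120 between backgrounds; Olfr1121 is the neighbour of Olfr1120 and Olfr1126 the largest difference between backgrounds. Sequences are as deposited, and capitals mark bases that differ from the most similar probe of the same kind for another OR gene.
Olfr1052 capture probe: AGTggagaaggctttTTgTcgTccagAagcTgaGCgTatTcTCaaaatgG
Olfr1052 reporter probe: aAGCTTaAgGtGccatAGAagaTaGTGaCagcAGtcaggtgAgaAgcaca
Olfr1100 capture probe: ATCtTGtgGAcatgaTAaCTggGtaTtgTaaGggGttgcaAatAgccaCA
Olfr1100 reporter probe: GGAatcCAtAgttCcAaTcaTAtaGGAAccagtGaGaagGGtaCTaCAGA
Olfr1018 capture probe: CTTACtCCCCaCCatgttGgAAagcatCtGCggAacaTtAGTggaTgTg
Olfr1018 reporter probe: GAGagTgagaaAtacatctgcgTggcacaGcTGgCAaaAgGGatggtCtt
Olfr1120 capture probe: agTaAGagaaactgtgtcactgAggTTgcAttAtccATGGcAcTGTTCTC
Olfr1120 reporter probe: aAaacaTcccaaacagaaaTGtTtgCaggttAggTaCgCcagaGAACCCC
Olfr1121 capture probe: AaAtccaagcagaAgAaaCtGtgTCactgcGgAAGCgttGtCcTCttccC
Olfr1121 reporter probe: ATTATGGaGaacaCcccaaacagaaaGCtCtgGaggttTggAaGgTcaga
Olfr1126 capture probe: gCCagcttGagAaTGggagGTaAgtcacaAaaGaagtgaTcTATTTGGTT
Olfr1126 reporter probe: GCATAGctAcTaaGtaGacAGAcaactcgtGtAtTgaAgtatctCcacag
Across the 44 genes, the best match of a capture probe to that of any other OR gene covered 44% to 76% of its bases (median 58.8%), and for reporter probes 48% to 80% (median 56%). A cross-binding RNA would have to match both probes. Taking the weaker of both matches to the same other gene, the highest value was 70% (Olfr1056 with Olfr480). Olfr1120 and Olfr1121 share 30 bases of the capture and 33 of the reporter probe. Probes were compared only with probes of other OR genes in the deposited table, without gaps, each probe sliding by up to 10 bases. They were not compared with RNA sequences, and OR genes without a probe were left out. These values therefore cannot show whether another OR RNA holds a matching site, and cross-binding was not tested.

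The 44 genes ran from among the most to among the least abundant OR genes. In 129 mice their medians spanned 26.5-fold, from 228 scaled counts (Olfr1055, rank 524 of 549 OR genes) to 6045 (Olfr1015, rank 4). NanoString counts are per molecule and need no correction for length, but probes differ in how well they are captured, and the order of genes includes that. The next highest medians were 4605 (Olfr1018), 4498 (Olfr1006), 3137 (Olfr1030) and 3091 (Olfr1025-ps1, named as a pseudogene). The next lowest were 238 (Olfr995), 359 (Olfr996), 443 (Olfr259) and 453 (Olfr1086). The ranges of Olfr1018 (4277 to 4715) and Olfr1006 (4064 to 4560) overlapped, as did those of Olfr1055 (195 to 292) and Olfr995 (175 to 279), so these neighbours in the order are not apart beyond the spread between mice. The median over the 44 genes was 1482 scaled counts against 1097 over 549 OR genes, and 13 of the 44 were in the top 25% and 8 in the bottom 25%.

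The order at both ends was much the same in other groups. Olfr1015 had the highest median in every group except the wild-type mice of MK29, in which Olfr1018 was highest (5643 scaled counts). Olfr1055 had the lowest median in every group except those same mice, in which Olfr996 was lowest (269). The highest over the lowest median was 21.0 to 24.6 in the other 4 groups.

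**Figure D1:**
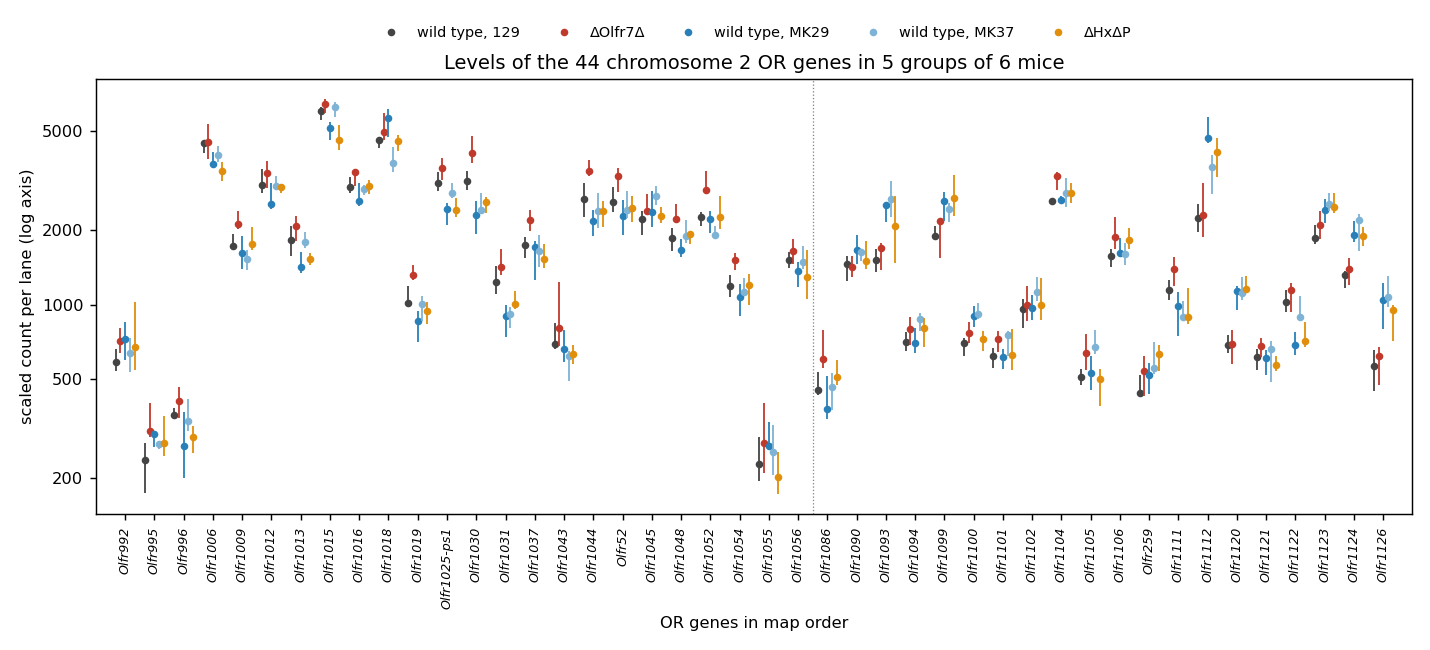
Scaled counts per lane (log axis) of the 44 genes in map order, with the median of 6 mice per group as a point and the lowest to highest mouse as a line. In 129 mice medians run from 228 to 6045, in ΔHxΔP mice from 203 to 4607; the dotted line marks the widest stretch between measured neighbours.

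Summed over the 44 genes, scaled counts per mouse were 69591 to 78136 (median 74330) in 129 mice and 79779 to 90242 (median 87270) in ΔOlfr7Δ mice. These ranges do not overlap. They were 70311 to 80535 in wild-type mice of MK29, 75354 to 83615 in those of MK37 and 72950 to 78422 in ΔHxΔP mice. The medians were 76359, 76982 and 75129, and these 3 ranges overlap each other and that of the 129 mice. As a share of 318 OR genes that are not on chromosomes 7, 9 or 14, the 44 genes took 15.9% to 16.6% (median 16.4%) in 129 mice and 16.6% to 17.7% (median 17.2%) in ΔOlfr7Δ mice. By this measure, which does not use the reference genes, the highest 129 mouse and the lowest ΔOlfr7Δ mouse both stood at 16.6%, and the ranges overlapped. The share was 14.8% to 15.6% in wild-type mice of MK29, 14.3% to 15.3% in those of MK37 and 14.7% to 15.9% in ΔHxΔP mice. Both mixed wild-type ranges lay below that of the 129 mice, unlike the summed counts. The highest ΔHxΔP mouse and the lowest 129 mouse both stood at 15.9%.

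Deleting the Olfr7 cluster of chromosome 9 asks whether OR genes elsewhere change too. Among the 44 genes, 21 were higher in ΔOlfr7Δ than in 129 mice, 0 were lower and 23 did not pass the test (limma on log2 scaled counts, Benjamini-Hochberg adjusted p under 0.05 over 555 OR genes). Over all OR genes tested, 23.2% were higher and 11.9% lower, the deleted cluster among the latter. At an unadjusted p under 0.05, limma gave 26 higher and 0 lower. The like share over all OR genes was not counted, so these counts do not set the 44 genes apart. The changes were small: the median was 0.18 on the log2 scale, against 0.06 over all OR genes, and the largest 0.51. The estimate was above 0 for 43 of the 44 genes, against 63.1% of all OR genes tested, and Olfr1090 was at -0.02.

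Olfr1052 (MOR172-1; MOR names group mouse ORs by sequence) had 2080 to 2364 scaled counts in 129 mice (median 2256) and 2819 to 3459 in ΔOlfr7Δ mice (median 2909). It rose by 0.43 ± 0.064 (SE) on the log2 scale, or 1.35-fold (adjusted p = 3.97e-06). Every ΔOlfr7Δ mouse was above every 129 mouse, as the plot of 8 genes by mouse shows. Its nearest measured neighbours also rose, Olfr1048 by 0.30 (adjusted p = 0.000905) and Olfr1054 by 0.34 (adjusted p = 0.000267).

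Olfr1044 had 2255 to 3101 scaled counts in 129 mice and 3292 to 3822 in mutants, a rise of 0.40 ± 0.070 (adjusted p = 4.23e-05). Olfr1019 had 978 to 1185 and 1260 to 1444, a rise of 0.36 ± 0.066 (adjusted p = 8.89e-05). Olfr1030, one of the most abundant of the 44, had 2884 to 3465 and 3719 to 4770, a rise of 0.41 (adjusted p = 3.21e-05). None of these ranges overlapped. The rare Olfr995 had the largest change, 175 to 279 against 294 to 402 scaled counts, or 0.51 ± 0.11 (adjusted p = 0.000464). Olfr1086 (0.44), Olfr1037 (0.34), Olfr1104 (0.30) and Olfr1054 (0.34) complete the 8 smallest p values, with Olfr1052, Olfr1030, Olfr1044 and Olfr1019. Olfr995 is not among these 8. The groups did not overlap for 11 of the 44 genes, or 25%, against 18.2% of all OR genes tested.

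Calls differed in number along the map and between sequence families. The widest stretch between measured neighbours, 320 kb between Olfr1056 and Olfr1086, divides the 44 genes into a proximal block of 24 and a distal block of 20, a division made after the values were seen. Of the proximal block 14 rose (median change 0.26) and of the distal block 7 (median 0.14). Elsewhere on chromosome 2, 9 rose and 1 fell of 20 OR genes at 36 to 38 Mb (median 0.18), and 16 rose and 3 fell of 65 from Olfr1151 on (median 0.05). All 4 MOR172 genes (Olfr1052, Olfr1105, Olfr1106 and Olfr259) and 3 of 4 MOR185 genes rose, while 2 of 5 MOR179, 0 of 5 MOR213 and 0 of 7 MOR264 genes passed the test. Scaled on all OR genes, 12 and 6 genes of the blocks, 3 of MOR172 and 2 of MOR185 were higher, and with positive controls alone 24 and 16, 4 and 4, and also 5 of 5 MOR213 and 5 of 7 MOR264 genes. No difference between blocks or families was tested.

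The reference genes, after the positive controls alone, were 0.18 higher on the log2 scale in ΔOlfr7Δ than in 129 mice, a difference as large as the median change of the 44 genes. With lanes scaled on all OR genes instead (TMM or median of ratios), 18 of the 44 were higher and 0 lower, with medians of 0.10 and 0.11 against about 0 over all OR genes under both. With positive controls alone, 40 were higher and 0 lower. The estimate was above 0 for 41 of the 44 genes under TMM and under median of ratios, and for 44 with positive controls alone. Here and in the comparisons below, shares of all OR genes called under other scalings are not given. Such counts therefore describe the 44 genes alone and do not set them apart from other OR genes. Of the 21 genes, 17 kept their call in every alternative. Olfr1025-ps1 and Olfr1043 lost it when any of 6 of the 12 mice was left out, Olfr259 for 9 of 12, and Olfr1101 without 129 mouse 5 or 6.

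The study's tTREAT, which tests whether a fold change exceeds a threshold, called 0 of the 44 genes at a fold of 1.3 and a p of 0.01, against 7.03% of all OR genes. At a p of 0.05 the count was also 0. The smallest p of tTREAT over the 44 genes was that of Olfr995, 0.0781. At a fold of 2 it again called 0, against 6.49% of all OR genes. With positive controls alone it called 3 of the 44.

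Removing H and P asks the same of OR genes outside the chromosomes of both elements. Of the 44 genes, 4 were higher and 6 lower in ΔHxΔP mice than in the 12 wild-type mice, against 10.3% higher and 24% lower over all OR genes tested, those near H and P included. The median change was -0.01, against -0.06 over all. Scaled on all OR genes, the balance of the calls turned, with 9 higher and 3 lower (TMM) or 10 higher and 3 lower (median of ratios), and with positive controls alone 5 were higher and 2 lower. With sex as a covariate, 2 were higher and 3 lower; 1 of 6 ΔHxΔP mice and 7 of the 12 wild-type mice were female.

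Olfr1100 (MOR206-4) had 651 to 783 scaled counts in ΔHxΔP mice (median 729), 810 to 987 in wild-type mice of MK29 (median 900) and 874 to 1012 in those of MK37 (median 921). It was the only gene of the 44 with no overlap between mutant and wild-type mice, against 9.19% of all OR genes. On the log2 scale it fell by 0.32 ± 0.062 (SE; adjusted p = 0.000485), and by a like amount against the wild-type mice of MK29 alone (-0.30, adjusted p = 0.0123) and of MK37 alone (-0.34, adjusted p = 0.00129). It was the only one of the 10 calls kept in every alternative. The neighbours Olfr1099, 18.4 kb away (0.14), and Olfr1101, 9.45 kb away (-0.05), did not pass the test.

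Of the other lower genes, Olfr1055 changed by -0.41 (adjusted p = 0.00600), with -0.51 against MK29 alone and -0.32 against MK37 alone, the latter short of the threshold (adjusted p = 0.0510). Olfr1015 (-0.25), Olfr1006 (-0.18), Olfr1093 (-0.30) and Olfr1105 (-0.32) passed against the wild-type mice of MK37 alone but not of MK29 alone. The higher genes were Olfr1086 (0.30), Olfr1106 (0.19), Olfr1009 (0.19) and Olfr1031 (0.19), and of these Olfr1086 alone passed within cartridge MK29 (0.41, adjusted p = 0.00931). Sex as a covariate ended the calls of Olfr1009, Olfr1015, Olfr1031, Olfr1093 and Olfr1105. Cartridge as a covariate ended those of Olfr1006, Olfr1009, Olfr1015, Olfr1093, Olfr1105 and Olfr1106. Those of Olfr1006, Olfr1015 and Olfr1093 were also lost under each of the other scalings, and that of Olfr1105 with positive controls alone. Leaving out a ΔHxΔP mouse ended the call of Olfr1006 (mouse 5), Olfr1009 and Olfr1093 (mouse 6), Olfr1086 (5 or 6), Olfr1031 (1, 4 or 5) and Olfr1105 (2, 3 or 4, and also wild-type mouse 2 or 4 of MK37).

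Of the 44 genes, 18 had estimates of opposite sign against the wild-type mice of MK29 alone and of MK37 alone, and 7 of these passed the test against either group. Olfr1018 alone passed it against both, being lower in ΔHxΔP mice than in the wild-type mice of MK29 (-0.29, adjusted p = 0.00364) and higher than in those of MK37 (0.27, adjusted p = 0.00211), with -0.01 against both together. Olfr1112 was at -0.26 (adjusted p = 0.0304) against MK29 and 0.23 (adjusted p = 0.0633) against MK37. Olfr1048 passed against MK29 (0.19 and -0.02), and Olfr996 (0.14 and -0.25), Olfr1013 (0.06 and -0.24), Olfr1025-ps1 (0.04 and -0.22) and Olfr1122 (0.09 and -0.35) against MK37. How many of all OR genes turned in this way was not counted. Between the wild-type groups themselves, 29.2% of all OR genes tested were higher and 10.8% lower in MK37 than in MK29. tTREAT at a fold of 1.5 called 0 of the 44 genes, against 4.12% of all OR genes, and the count at a p of 0.05 was also 0. At a fold of 1.3 it again called 0, against 5.91% of all OR genes.

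**Figure D2:**
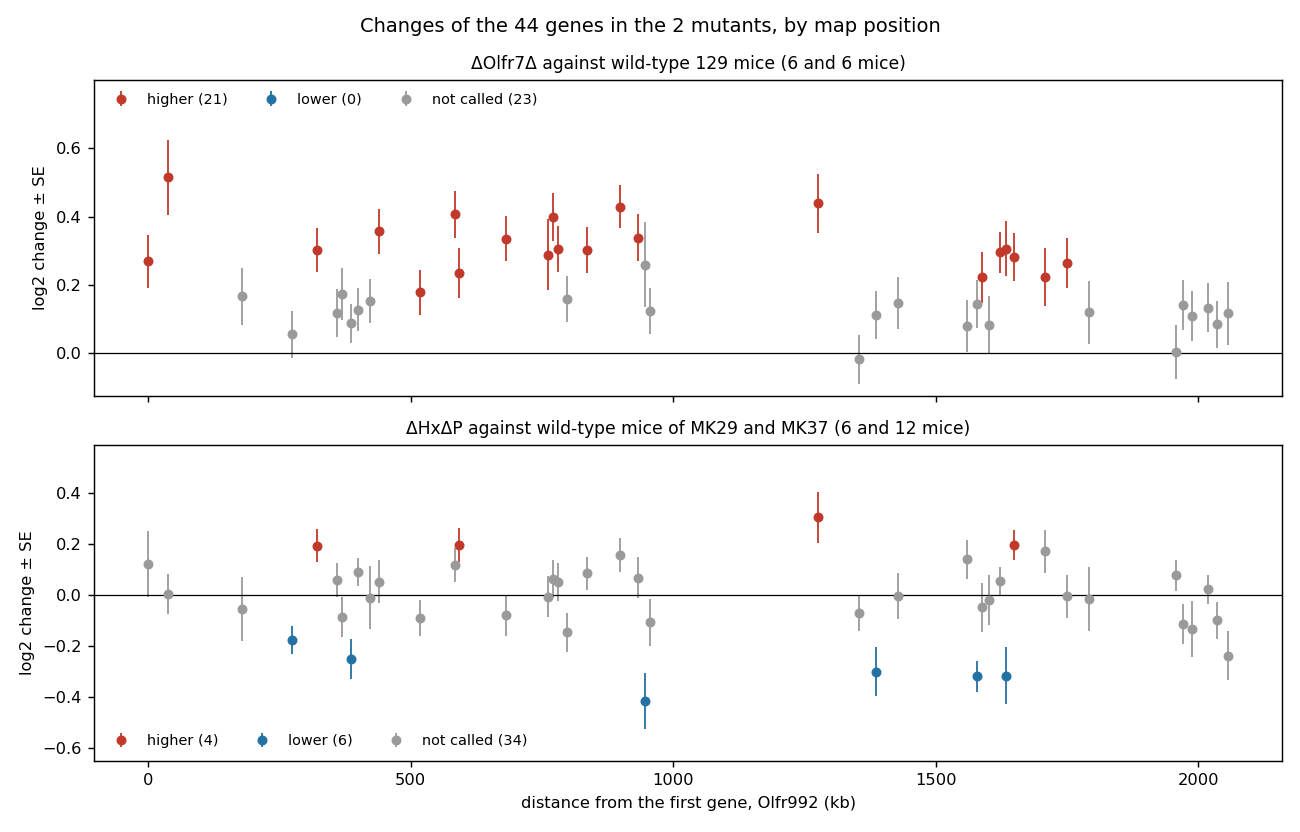
Change of each gene on the log2 scale (± SE) by distance from the first gene in kb, for ΔOlfr7Δ against 129 mice (top) and ΔHxΔP against 12 wild-type mice (bottom); colours mark higher, lower and not called. In the upper panel 43 of 44 points lie above 0, against 63.1% of all OR genes tested. In the lower panel 20 do, against 41.1%.

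The effects of both mutants share no control mice and were compared in 1 fit of all 30 lanes. The ΔOlfr7Δ effect was above the ΔHxΔP effect for 20 of the 44 genes and below it for 0 (0 also at an unadjusted p under 0.05 by limma), against 30.2% above and 11.3% below over 549 OR genes. The median difference was 0.24 against 0.14 over all. Among the largest were Olfr1055 (0.67 ± 0.17, adjusted p = 0.00195), Olfr1105 (0.62 ± 0.12, adjusted p = 5.47e-05) and Olfr1100 (0.46 ± 0.088, adjusted p = 5.47e-05). The count depends on the scaling, with 13 genes under TMM, 6 under median of ratios and 31 with positive controls alone, and was 9 with the wild-type mice of MK29 as the sole controls of ΔHxΔP. Olfr1009, Olfr1031, Olfr1086 and Olfr1106 were higher in both mutants, and Olfr1105 was higher in ΔOlfr7Δ and lower in ΔHxΔP mice.

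Wild-type mice of mixed and of 129 background differed in both directions at these genes, and each background was on cartridges of its own, so background and cartridge cannot be told apart. Of the 44 genes, 13 were higher and 9 lower in the 12 mixed mice, against 37.3% and 33.5% of 547 OR genes. The median change was -0.02, against 0.00 over all, and 5 genes differed by more than 1.5-fold. The groups did not overlap for 10 genes, or 22.7%, against 38.4% of all OR genes.

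The genes that were higher lay mostly at the distal end. In the distal block 11 were higher and 2 lower of 20 (median 0.22), and in the proximal block 2 were higher and 7 lower of 24 (median -0.12). Of other chromosome 2 OR genes, 1 was higher and 11 lower of 19 at 36 to 38 Mb (median -0.29), far from the 44 genes. From Olfr1151 on, 40 were higher and 13 lower of 65 (median 0.39). No trend along the chromosome and no difference between blocks was tested, and the blocks were set after the values were seen. Scaling moved mainly the lower calls of the proximal block, which were 17 under TMM, 15 under median of ratios and 2 with positive controls alone, beside 2, 2 and 4 higher; in the distal block 11 were higher under all 3. Over the 44 genes the split was 13 higher and 20 lower under TMM, 13 and 18 under median of ratios, and 15 and 3 with positive controls alone.

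Olfr1120 (MOR264-2) had 641 to 759 scaled counts in 129 mice (median 687), 949 to 1187 in mixed mice of MK29 (median 1137) and 1042 to 1295 in those of MK37 (median 1111). All 12 mixed mice were above all 129 mice, a difference of 0.70 ± 0.060 or 1.63-fold (adjusted p = 1.01e-09). Its neighbour Olfr1121, 13.1 kb away in the same family, had 548 to 665 scaled counts in 129 and 488 to 713 in mixed mice, with a difference of 0.02 that did not pass the test. On the other side, Olfr1112 was higher by 0.89 (adjusted p = 1.07e-06).

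Olfr1126, the last of the 44 genes, had 449 to 660 scaled counts in 129 mice and 800 to 1300 in mixed mice. Its difference of 0.93 ± 0.092, or 1.91-fold (adjusted p = 9.92e-09), was the largest of the 44. Against 129 mice it was 0.88 for the mice of MK29 and 0.99 for those of MK37, and 0.68 and 0.72 for Olfr1120. In the MOR264 family as a whole, 5 of 7 genes were higher (Olfr1112, Olfr1120, Olfr1123, Olfr1124 and Olfr1126), Olfr1122 was lower (-0.35) and Olfr1121 did not pass the test. The same number, 5, was higher under each of the other scalings, while Olfr1122 lost its call with positive controls alone and against the mice of MK37 alone.

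Outside that family, Olfr1093 was higher by 0.74 (adjusted p = 1.41e-09), Olfr1100 by 0.39 and Olfr1099 by 0.36. Olfr1031 (-0.45, adjusted p = 4.89e-06) and Olfr1030 (-0.41, adjusted p = 1.11e-05), which lie 7.02 kb apart, were lower with no overlap between groups. Olfr1111 (-0.29), Olfr1025-ps1 (-0.26), Olfr1044 (-0.23), Olfr1009 (-0.18) and Olfr1006 (-0.17) were also lower. With positive controls alone Olfr1025-ps1, Olfr1044, Olfr1009 and Olfr1006 lost their calls, and so did Olfr1044 for the mice of MK37 alone (-0.15, adjusted p = 0.0938) and Olfr1009 for the mice of MK29 alone (-0.14, adjusted p = 0.0785). Olfr1105 lost its call when any of 12 of the 18 mice was left out, Olfr1019 without 129 mouse 2 or 3 and Olfr1045 without 129 mouse 6. Olfr1019 also lost its call with positive controls alone and for the mice of MK37 alone (-0.07, adjusted p = 0.329). For the mice of MK29 alone, Olfr1045 (0.12, adjusted p = 0.190), Olfr1105 (0.04, adjusted p = 0.653) and Olfr259 (0.18, adjusted p = 0.0538) lost theirs.

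**Figure D3:**
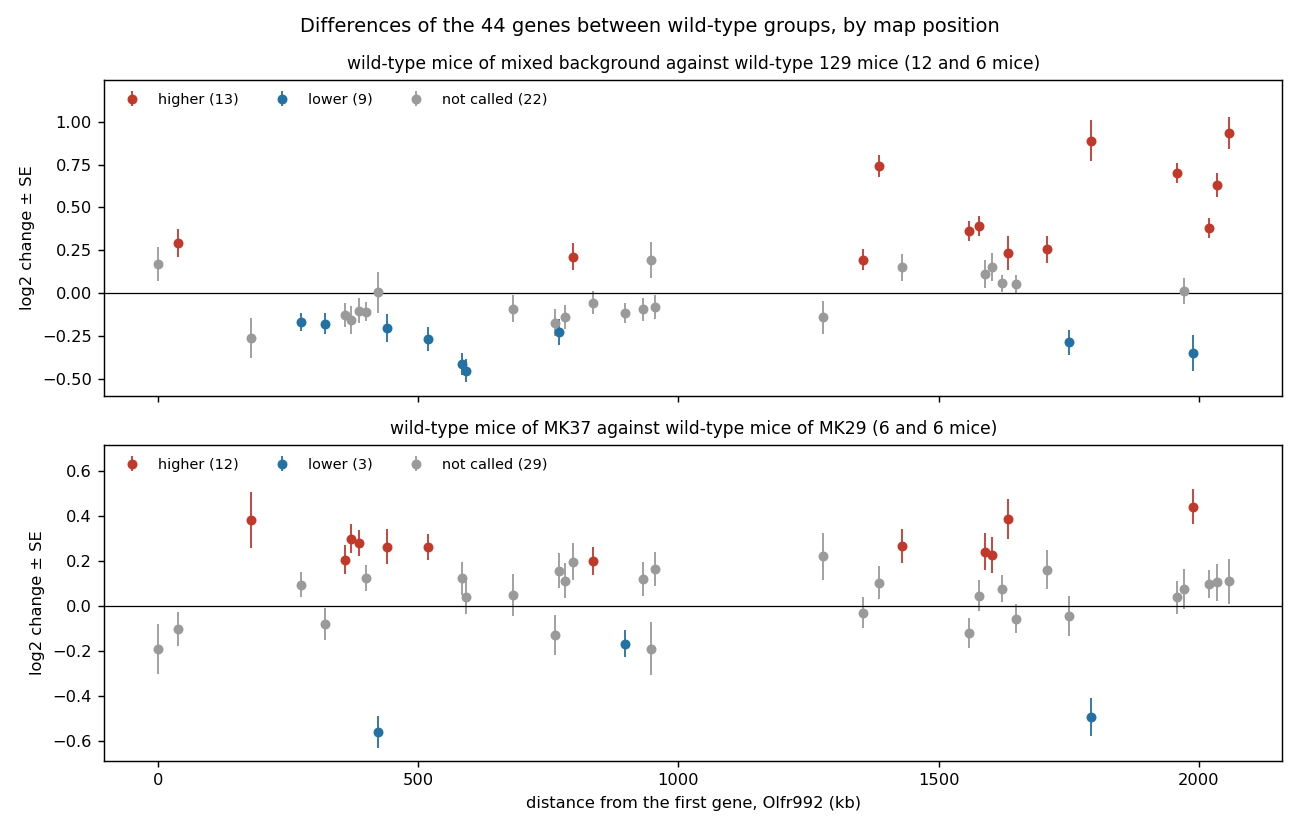
Difference of each gene on the log2 scale (± SE) by distance from the first gene in kb, for mixed against 129 wild-type mice (top) and MK37 against MK29 wild-type mice (bottom). In the upper panel 5 of 24 points before the widest stretch and 17 of 20 after it lie above 0; in the lower panel the 3 lower genes stand among genes that were higher or not called.

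The wild-type mice of MK37 and MK29 have the same mixed background but differ in colony and cartridge, which cannot be told apart. Of the 44 genes, 12 were higher and 3 lower in MK37, against 29.2% and 10.8% of 555 OR genes. The median was 0.11, against 0.10 over all. Scaled on all OR genes by TMM or by median of ratios, 7 were higher and 8 lower, and with positive controls alone 18 were higher and 2 lower.

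The 3 lower genes were Olfr1018, Olfr1112 and Olfr1052 (-0.17, adjusted p = 0.0302, kept in 5 of 12 fits with a mouse left out). Olfr1018, the only MOR260 gene among the 44, had 4721 to 6131 scaled counts in MK29 (median 5643) and 3436 to 4316 in MK37 (median 3729). It differed by -0.56 ± 0.071 (adjusted p = 1.57e-05), and no mouse of one colony reached the other colony's range. The 129 mice had 4277 to 4715, overlapping MK37, and the ΔHxΔP mice 4147 to 4818, overlapping both colonies. Against 129 mice, Olfr1018 was higher in MK29 (0.29, adjusted p = 0.000259) and lower in MK37 (-0.27, adjusted p = 0.000185). The neighbours did not share this, Olfr1016 with 0.12 not passing the test and Olfr1019 higher by 0.26.

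Olfr1112 had 4467 to 5704 scaled counts in MK29, 2801 to 3997 in MK37 and 1971 to 2534 in 129 mice, 3 ranges with no overlap. Between the colonies it differed by -0.49 ± 0.086 (adjusted p = 0.000283). Olfr1122, another MOR264 gene, had 630 to 777 scaled counts in MK29 and 874 to 1082 in MK37, a difference of 0.44 (adjusted p = 0.000318). Olfr1105 (0.39), Olfr1013 (0.30), Olfr1015 (0.28) and Olfr1025-ps1 (0.26) were higher in MK37 with no overlap. Olfr1094 (0.27), Olfr1019 (0.26) and Olfr1048 (0.20) were higher with overlap. The groups did not overlap for 7 of the 44 genes, against 20% of all OR genes. Olfr1101 and Olfr1102, also higher, kept their calls in 5 and 6 of 12 fits with a mouse left out. Olfr996 (0.38) and Olfr1012 (0.21) were higher as well. Olfr996, Olfr1012, Olfr1048, Olfr1101 and Olfr1102 lost their calls when lanes were scaled on all OR genes.

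**Figure D4:**
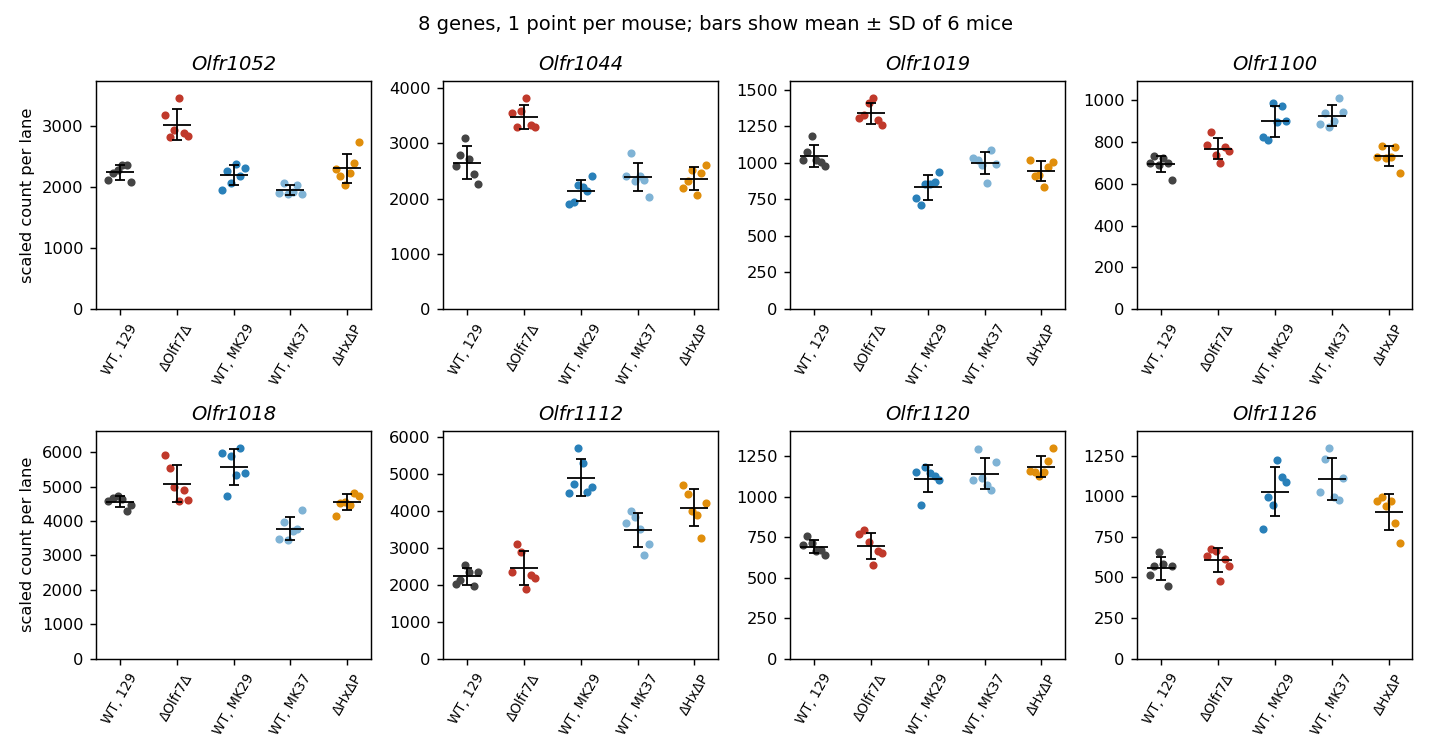
Scaled counts of 8 genes with 1 point per mouse and the mean ± SD of 6 mice per group; the vertical axes start at 0 and differ between genes. ΔOlfr7Δ mice stand above 129 mice for Olfr1052, Olfr1044 and Olfr1019, ΔHxΔP mice below both mixed wild-type groups for Olfr1100, both colonies apart for Olfr1018 and Olfr1112, and all mixed mice above all 129 mice for Olfr1120 and Olfr1126.

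Mice of mixed background varied more among themselves than 129 mice at most of these genes. The SD of log2 scaled counts had a median of 0.16 over the 12 mixed mice and 0.13 within their cartridges, against 0.10 in 129 mice, and over 549 OR genes these medians were 0.17, 0.14 and 0.11. It was larger in mixed mice for 40 of 44 genes, and for 34 within cartridges, as it was for 469 and 401 of 549 OR genes. The largest values were those of Olfr1018 (0.32), Olfr1112 (0.31), Olfr996 (0.30), Olfr1122 (0.26), Olfr1105 (0.25) and Olfr992 (0.23). Within cartridges Olfr1018 fell to 0.13, near the median, while Olfr996 stayed at 0.23. Olfr995 (0.085), Olfr1006 (0.092) and Olfr1100 (0.097) varied least among mixed mice, yet Olfr995 had the largest SD in 129 mice, 0.23.

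**Figure D5:**
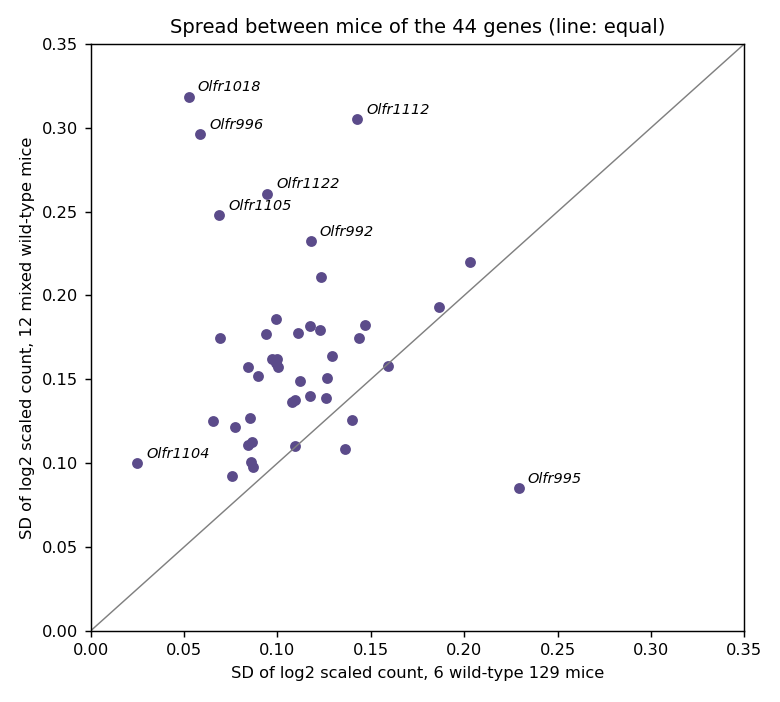
SD of log2 scaled counts of the 44 genes, in 6 wild-type 129 mice on the horizontal and 12 mixed wild-type mice on the vertical axis, with a line of equal values. For 40 genes the point lies above the line; Olfr1018 is at the top with 0.32 and Olfr995 lies far below the line with 0.085 against 0.23.

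In all 4 comparisons together, 41 of the 44 genes passed the test at least once. The like share over all OR genes was not counted, so this number is no trait of the 44. Between backgrounds alone, 37.3% of all OR genes tested were higher and 33.5% lower. Olfr1016, Olfr1056 and Olfr1121 passed in none, and Olfr1105, one of the rarer genes with a median of 511 scaled counts in 129 mice, passed in all 4. All but the ΔOlfr7Δ comparison share the wild-type mice of MK37, so the passes are not independent of each other. With the wild-type mice of MK29 alone, Olfr1105 did not pass against ΔHxΔP mice (-0.12, limma adjusted p = 0.420). Nor did it pass between these mice and 129 mice (0.04, limma adjusted p = 0.653).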

How the data were processed

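The authors deposited raw NanoString counts per probe and lane for 30 mice, with no scaling or background subtraction and with empty cells for probes not read on a cartridge; the table is therefore recorded as other than plain counts. Positions, strands and MOR names came from the study's OR naming table, and probe sequences from the deposited table. Lanes were scaled by the geometric mean of 6 positive controls and then of 5 reference genes, as the study's methods describe. The background (mean plus 2 SD of 8 negative controls) was subtracted only for the filter and for tTREAT.

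OR genes whose median in wild-type mice reached 100 after scaling and subtraction (555, or 547 across all wild-type mice) were tested with limma 3.58.1 in R 4.3.3, with a mean-variance trend, on log2(scaled count + 1); fold changes are on that scale. A gene was called at an adjusted p of 0.05 (Benjamini-Hochberg, over all OR genes tested). Each lane is 1 mouse, so p-values measure the spread between mice. tTREAT was rewritten from the study's functions, with an unadjusted p of 0.01. On simulated data with 200 changed genes, the ΔOlfr7Δ fit over 555 genes recovered 95% of 1.3-fold changes and called 9 of 355 unchanged genes, and the ΔHxΔP fit recovered 86% and called 4 of 355. The simulated noise was independent between genes and lanes, with no scaling error and no effect of lane position, sex or colony added. Of the 44 genes, 5 changed by more than 1.3-fold in ΔOlfr7Δ and 1 in ΔHxΔP mice, so these rates do not cover most of the calls. Groups, cartridge and sex came from the sample labels, and replicate numbers are in accession order. Python 3.11.15 with matplotlib 3.10.9 drew the plots.

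The 44 genes, the lists and the tests were chosen with earlier results of these data known. The genes named are, per comparison, the 8 called genes with the smallest p in each direction and the neighbours of the first, the 5 highest and 5 lowest medians in 129 mice, the 6 largest and 3 smallest SDs in mixed mice, and the genes at the edges. Others were named after their values were seen. Alternatives were other scalings, background subtraction, no filter, a pseudocount of 10, no trend, sex or cartridge as a covariate, either wild-type group alone, and leaving out each mouse in turn.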

Additional observations from a re-analysis of the deposited data

Results flagged for a closer look

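In 14 of 220 sets of 6 mice (44 genes in 5 groups), or 6.36%, 1 mouse stood apart from the other 5, its gap to the nearest being too large a part of the whole range by Dixon's test. About 1 in 20 such sets is flagged by chance. In wild-type mice of MK37 the highest mouse stood apart for Olfr996 (416 scaled counts, nearest 348), Olfr1030 (2804, nearest 2499) and Olfr259 (707, nearest 583). The lowest of these mice did so for Olfr1043 (491, nearest 615), Olfr1090 (1493, nearest 1618) and Olfr1121 (488, nearest 635). In wild-type mice of MK29 they were the highest for Olfr1086 (516, nearest 409) and the lowest for Olfr1093 (2148) and Olfr1120 (949, nearest 1104). In 129 mice they were the highest for Olfr1043 (844, nearest 726) and Olfr259 (523, nearest 451) and the lowest for Olfr1104 (2528, nearest 2609). A ΔHxΔP mouse was highest for Olfr1009 (2048, nearest 1790), and a ΔOlfr7Δ mouse was lowest for Olfr1093 (1377, nearest 1630).

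The ΔOlfr7Δ effect and the ΔHxΔP effect differed by limma's test of the difference for 20 genes, always with the first above the second. On the log2 scale the difference was 0.67 for Olfr1055, 0.62 for Olfr1105, 0.51 for Olfr995, 0.46 for Olfr1100, and 0.41 for Olfr1037 and Olfr1093. It was 0.35 for Olfr1126, 0.34 for Olfr1015 and Olfr1044, 0.31 for Olfr1045, 0.30 for Olfr1019, 0.29 for Olfr1030, and 0.27 for Olfr1025-ps1, Olfr1052 and Olfr1054. It was 0.26 for Olfr1013, 0.25 for Olfr52, 0.24 for Olfr1104, 0.23 for Olfr1006 and 0.22 for Olfr1048. Fewer genes differ when lanes are scaled on all OR genes.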

How the results depend on the processing

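For ΔOlfr7Δ against 129 mice, 21 genes became 40 with positive controls alone and 27 with sex as a covariate, and all other alternatives gave 18 to 21; leaving out 1 mouse gave 17 to 24. For ΔHxΔP against wild-type mice, 10 became 5 with sex as a covariate. With the wild-type mice of MK29 alone 6 were called, of which 3 are shared with the 10. With those of MK37 alone 15 were called, and 7 to 11 with 1 mouse left out. With cartridge as a covariate 10 were called, of which 4 are shared. TMM gave 12 and median of ratios 13, with 7 shared under each, and positive controls alone gave 7, with 6 shared. Sex was unevenly spread between ΔHxΔP and wild-type mice. Between MK37 and MK29, the count of 15 stayed at 15 or rose to 20 (positive controls alone), and was 12 to 17 with 1 mouse left out. Under TMM and under median of ratios only 10 of the 15 genes kept their calls, and the split became 7 higher and 8 lower. Between backgrounds, 22 ranged from 18 (positive controls alone) to 33 (TMM), and 21 to 24 with 1 mouse left out. For the difference between the mutant effects, whose alternatives were chosen after seeing the data, 20 became 13 (TMM), 6 (median of ratios), 31 (positive controls alone) and 9 (wild-type mice of MK29 alone), and 15 to 24 with 1 mouse left out. tTREAT's 0 for ΔOlfr7Δ mice became 3 with positive controls alone (Olfr995, Olfr1052 and Olfr1086) and stayed 0 with any mouse left out, as it did for ΔHxΔP mice; these alternatives too were added later. The cause of these shifts was not tested. None of the genes called in a comparison changed direction under its alternatives. Olfr1018, not called against both wild-type groups together or between backgrounds, turned with the wild-type group used. A planned count model was not run, because the table is recorded as other than plain counts. No paired analysis was possible because the replicate numbers only follow accession order. Among the rarest genes, Olfr1055 had an SD of 0.32 on the log2 scale in ΔOlfr7Δ mice, and its change of 0.26 there did not pass the test. Olfr995 had SDs of 0.23 in 129 mice and 0.085 over the 12 mixed mice, and its difference of 0.29 between backgrounds did pass. Large SDs were not confined to rare genes, as Olfr992, with a median of 677 scaled counts in ΔHxΔP mice, had 0.35 there.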
